A study of Mus musculus with 12 samples.

Results

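Wnt ligands, their frizzled receptors and the Dkk and Sfrp families of secreted inhibitors were measured in mouse lung tumours labelled as knockout (KO) for Dnmt3a, an enzyme that adds methyl groups to DNA, and in tumours labelled as wild type (WT). They were taken as every probe whose gene name on the array is Wnt, Fzd, Dkk or Sfrp followed by a digit, which gave 49 of 41174 probes. These probes cover 37 of the 22410 named genes on the array: 19 Wnt genes, 10 Fzd genes, 4 Dkk genes and 4 Sfrp genes.

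RNA from KO and from WT tumours was hybridised together on each of 12 two-colour Agilent arrays, with the KO RNA in Cy5 on 6 of them and in Cy3 on the other 6. A ratio here is the log2 of KO over WT signal on 1 array. The mice were of mixed C57/129 background and carried K-ras LSL-G12D, a K-ras allele that stays silent until Cre recombinase removes a stop cassette. Adenovirus carrying Cre was given through the trachea or nose at 6 to 12 weeks of age, so that lung cells of both groups acquired K-ras G12D, and in the KO group the conditional Dnmt3a alleles of those cells were also recombined. Cells that the virus did not reach keep intact Dnmt3a alleles, and the tumours were profiled whole. By the ages and sexes in the labels the arrays form 4 pairs of animals, with the unit of age not given. Since the labels give identical age and sex for KO in pairs B and C, 1 mouse may have supplied both, which would leave fewer than 4 independent pairs. In pair A (replicates 1 to 4, slide 1) the KO age was 47.7 and the WT age 42.6. In pair B (replicates 5 to 8, slide 2) they were 27 for KO and 41.3 for WT. Pair C (replicates 9 and 10) set a male KO animal of age 27 against a female WT animal of age 47.6, and pair D (replicates 11 and 12) set KO age 29.1 against WT age 37.3. All other animals were male, and pairs C and D shared slide 3. Pair, age and slide therefore cannot be told apart for pairs A and B. Within every pair the KO and WT ages also differed, with KO the older in pair A and the younger in pairs B, C and D. Genotype and age therefore cannot be told apart within a pair, nor genotype and sex in pair C. Both arrays of pair C carried KO RNA in Cy5 and both arrays of pair D carried it in Cy3. Pair and dye therefore cannot be told apart for pairs C and D. Values given by pair are plain means of the ratios, without correction for dye. The labels call the arrays biological replicates, but no label tells whether tumours within a pair stem from different mice, and p-values here therefore reflect array-to-array spread that may be technical. In bulk tumour RNA, fewer cells of a type and less RNA per cell cannot be told apart.

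Wnt proteins are secreted lipid-modified ligands that bind frizzled receptors on the cell surface. Together with the co-receptors Lrp5 and Lrp6, a bound frizzled stabilises beta-catenin, which enters the nucleus and switches on target genes with Tcf and Lef factors, and other Wnt and frizzled pairs steer cell polarity and movement. Dkk proteins act on the co-receptors and Sfrp proteins bind the ligands outside the cell, and in the lung the pathway is known for its part in budding of the airways and in the upkeep of alveolar type 2 cells.

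Signals were well above background for 58.4% to 89.6% of probes in KO RNA and for 61.6% to 89.4% in WT RNA, with the lowest shares on slide 3. Among the 49 probes, 20 to 46 per array were well above background in KO RNA and 25 to 45 in WT RNA, and none was saturated. Dnmt3a itself was lower in KO tumours at all 3 of its probes, by ratios of -0.55 (adjusted p = 0.00264), -0.25 (adjusted p = 0.0158) and -0.21 (adjusted p = 0.0217). Which part of the gene was deleted is not stated in the labels, so these probes check the labels only in part. Transcripts of the alveolar type 2 cells from which such tumours often arise (5 of 6 markers) and of epithelium (5 of 5 markers) were well above background on all arrays in both groups. Endothelial markers were lower in KO tumours at 8 of 10 genes, by the test described below, against 3.49% of all genes. The median ratio of the endothelial list was -0.74, and its value per array lay between -1.36 and -0.49.

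At a Benjamini-Hochberg adjusted p under 0.05 over all 35531 probes kept, 3 frizzled genes, Fzd1, Fzd2 and Fzd7, were higher in KO tumours at their main probe, the kept probe of highest mean signal. One inhibitor gene, Dkk3, was lower. The other 7 frizzled genes did not pass at their main probe, and no Wnt or Sfrp probe was called. Of the 45 kept probes 5 passed, and over all kept probes 5.73% did, 2.85% higher and 2.88% lower. One of the 5, a second probe of Fzd3, was kept only through KO RNA, and its passing is no support for a difference. With probes kept only where they were well above background on at least 6 arrays in each group, a filter chosen after seeing the data, 3 of 42 member probes were higher (7.14%, against 2.93% of 34602) and 1 was lower (2.38%, against 2.99%). The 4 probes that were not kept, both of Wnt3 and those of Wnt8a and Dkk4, were too dim for a test.

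At the main probes of the 34 genes with a kept probe, 3 were higher (8.82%, against 3.05% of 20583 genes) and 1 was lower (2.94%, against 3.49%). The median ratio was -0.04 over these 34 genes, with 10 above 0 and 24 below, and -0.01 over all genes. The 10 frizzled genes had a median of 0.05 and spanned -0.51 to 0.71. The 17 Wnt genes had a median of -0.04 and spanned -0.36 to 0.31, with 4 above 0 and 13 below. The 3 Dkk genes had a median of -0.48 and the 4 Sfrp genes a median of -0.07, with none of these 7 above 0. The sign of each family's median was the same under 5 other scalings of the arrays, while 1 or 2 Sfrp genes were above 0 in 4 of them. All 4 calls at main probes were lost when each pair was reduced to 1 mean, which leaves 4 values (adjusted p between 0.0691 and 0.0912), and with median centring of arrays in place of loess (0.0812 to 0.149). The count of 5 called probes fell to 2 without replicate 1 or 9, to 3 without replicate 3, 6, 7 or 8, and to 0 without replicate 12.

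**Figure D1:**
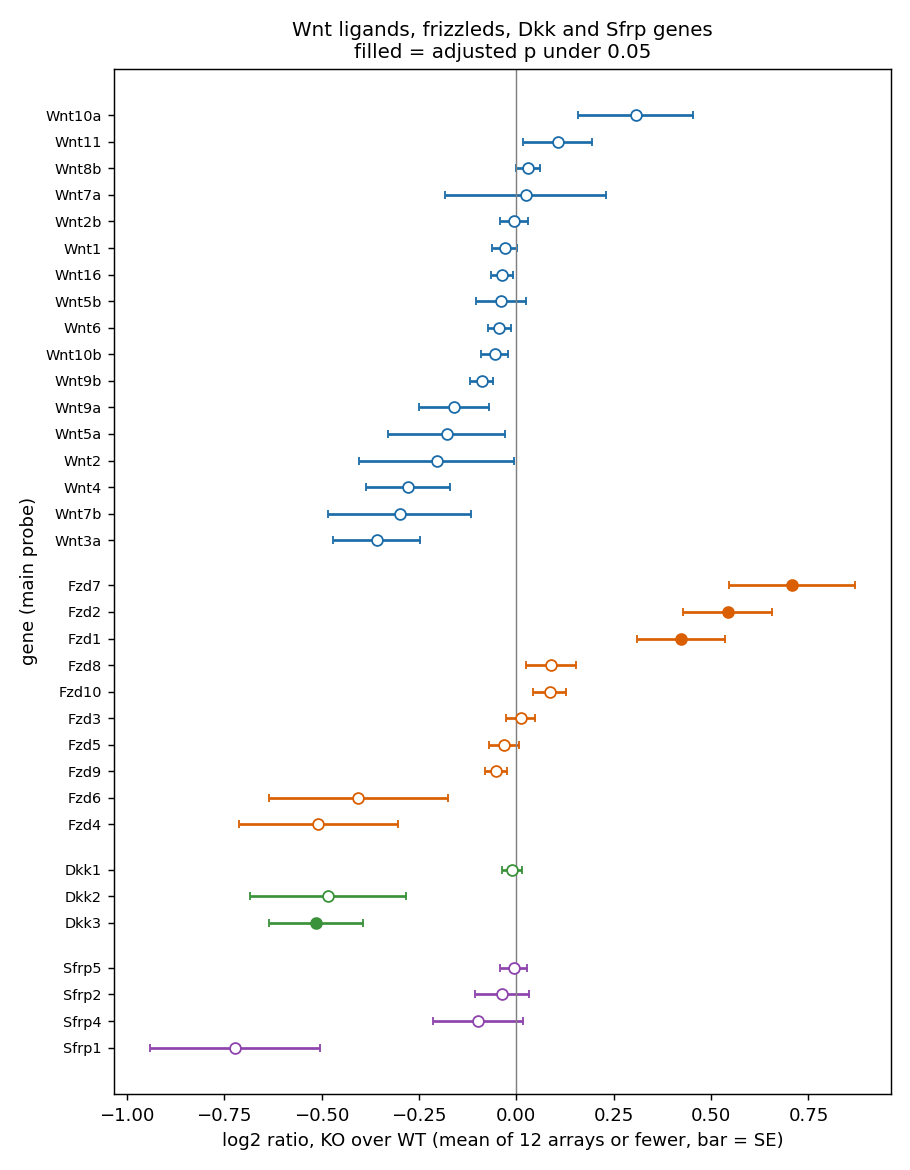
Log2 ratio of KO over WT signal (x axis) at the main probe of each of the 34 genes with a kept probe, grouped by family down the page and coloured by family, with bars of 1 SE over the arrays. Filled points passed an adjusted p of 0.05: Fzd7 (0.71), Fzd2 (0.54) and Fzd1 (0.42) lie right of 0 and Dkk3 (-0.51) lies left of it.

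Fzd7, a frizzled known from progenitor cells and from embryonic gastrulation, had the largest rise of the family. Its main probe lies at chr1:59737506-59737565 on the plus strand of mm7, the build of the array annotation. The normalized log2 signal in KO tumours was 10.43 at the lowest, 11.11 at the median and 11.78 at the highest, against 9.44, 10.21 and 11.80 in WT tumours. The groups overlapped as sets, but within arrays the KO signal was the higher one on 10 of 12. Ratios per array were -0.07 at the lowest (replicate 2), 0.69 at the median and 2.18 at the highest (replicate 1), where the WT signal was the lowest of all. The mean ratio was 0.71 ± 0.16 (SE, n = 12; 95% interval 0.36 to 1.06), a 1.63-fold higher level in KO tumours with an adjusted p of 0.0287. All 4 pairs lay above 0, at 0.71 (A), 0.55 (B), 0.98 (C) and 0.72 (D). Without replicate 9 the adjusted p was 0.0501, and without replicate 12 it was 0.0594. A second, dimmer Fzd7 probe was also above 0 on 10 of 12 arrays and did not pass the test, with a ratio of 0.32 ± 0.09 (SE, n = 12) and an adjusted p of 0.0601.

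Fzd2, a frizzled that is close in sequence to Fzd1 and Fzd7 and binds Wnt5a among other ligands, was measured at chr11:102715340-102715399 on the plus strand. Its log2 signal in KO tumours was 10.33, 10.98 and 11.53 at the lowest, median and highest, against 9.25, 10.32 and 11.72 in WT tumours. The KO signal was the higher one on 11 of 12 arrays, and replicate 4 was the exception. Ratios were -0.20 at the lowest (replicate 4), 0.61 at the median and 1.08 at the highest (replicate 1). The mean ratio was 0.54 ± 0.12 (SE, n = 12; 95% interval 0.29 to 0.79), or 1.46-fold, with an adjusted p of 0.0218. The pairs gave 0.48 (A), 0.55 (B), 0.38 (C) and 0.79 (D). Without replicate 12 the adjusted p was 0.0523, and leaving out any other single array kept the call. A dimmer Fzd2 probe, well above background on 8 of 12 arrays in each group, had a ratio of 0.13 ± 0.05 (SE, n = 12) and did not pass the test (adjusted p = 0.122).

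Fzd1 was measured at chr5:4760009-4760068 on the minus strand and had no second probe. In KO tumours its log2 signal was 11.64, 12.24 and 12.82 at the lowest, median and highest, against 11.41, 11.81 and 12.45 in WT tumours. As for Fzd2, the ratio was above 0 on all arrays but replicate 4, from -0.31 there to 0.90 on replicate 8, with a median of 0.46. The mean ratio of 0.42 ± 0.11 (SE, n = 12; 95% interval 0.18 to 0.67), or 1.34-fold, passed the test only narrowly (adjusted p = 0.0499). The pairs gave similar values, 0.33 (A), 0.50 (B), 0.39 (C) and 0.46 (D). Leaving out any one of replicates 1, 2, 3, 5, 6, 8, 10, 11 and 12 moved the adjusted p to between 0.0604 and 0.107.

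**Figure D2:**
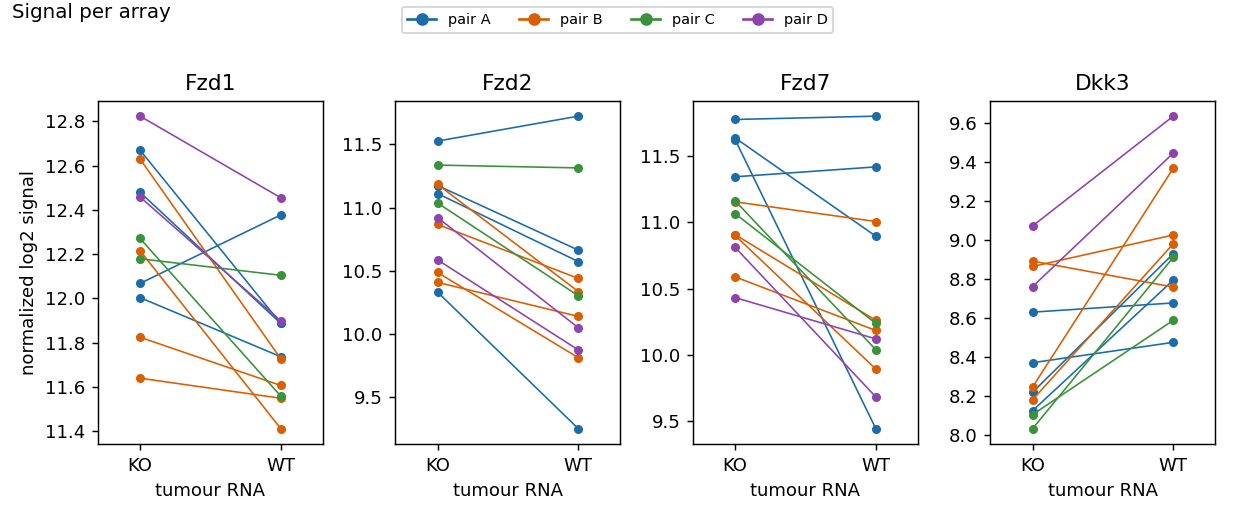
Normalized log2 signal (y axis, a separate scale per gene) of Fzd1, Fzd2, Fzd7 and Dkk3 in KO RNA (left) and WT RNA (right), with a line for each of the 12 arrays, coloured by pair. The KO end of the line is the higher one on 11, 11 and 10 arrays for Fzd1, Fzd2 and Fzd7 and on 1 array for Dkk3.

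The 250 bases before the annotated start of Fzd1 and Fzd7, both higher in KO tumours, are shown because Dnmt3a acts on CG dinucleotides. The same window of Fzd4, a receptor gene that was not called, is set beside them. The windows are from RefSeq on GRCm38.p6 (Fzd1 at chr5:4758217-4758466, minus strand; Fzd7 at chr1:59481897-59482146, plus strand; Fzd4 at chr7:89404116-89404365, plus strand). Each is read 5′ to 3′ in the direction of the gene, and capitals mark each CG.
Fzd1: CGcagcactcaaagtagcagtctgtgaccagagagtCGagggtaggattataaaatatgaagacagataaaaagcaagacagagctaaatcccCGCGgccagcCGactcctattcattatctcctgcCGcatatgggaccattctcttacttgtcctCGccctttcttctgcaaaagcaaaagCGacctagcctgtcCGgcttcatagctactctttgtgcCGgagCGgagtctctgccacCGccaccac
Fzd7: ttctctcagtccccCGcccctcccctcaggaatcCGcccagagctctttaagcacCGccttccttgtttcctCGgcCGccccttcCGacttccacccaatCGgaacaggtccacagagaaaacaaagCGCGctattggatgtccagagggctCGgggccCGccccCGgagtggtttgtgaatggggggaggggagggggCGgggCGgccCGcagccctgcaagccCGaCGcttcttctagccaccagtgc
Fzd4: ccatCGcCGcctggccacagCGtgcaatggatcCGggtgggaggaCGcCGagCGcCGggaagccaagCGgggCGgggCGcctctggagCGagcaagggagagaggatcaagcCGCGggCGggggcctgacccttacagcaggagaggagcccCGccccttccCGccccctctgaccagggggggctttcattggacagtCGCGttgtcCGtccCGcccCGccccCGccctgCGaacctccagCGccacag

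Fzd1 held 12 CG in this window, Fzd7 held 17 and Fzd4 held 25. Fzd4 is 1 example of an uncalled gene. Fzd5, Fzd9 and Fzd10, also uncalled, held 32, 42 and 37, and windows of uncalled members ran from 4 (Wnt5b) to 48 (Wnt9a). No window was matched for the called genes Fzd2 and Dkk3. Of 32851 windows in the reference table, 33.5% held at least as many as Fzd1, 23.5% at least as many as Fzd7 and 10.7% at least as many as Fzd4. The table matched 25 of the 37 genes, with 28 windows that held a median of 22 CG (4 to 48), against a median of 6 (0 to 56) over all windows. The GC content was 51.2% for Fzd1, 65.2% for Fzd7 and 72.8% for Fzd4, and the median over all windows was 52.4%. These counts describe the sequence alone, since DNA methylation was not measured on these arrays.

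The other frizzled genes did not pass the test at their main probe. Fzd3 is best known for its role in axon growth. Fzd3 had a main probe at 0.01 ± 0.04 (SE, n = 12; adjusted p = 0.903), well above background on 8 of 12 arrays in each group. Its second probe had ratios of -0.02 (replicate 4), 0.15 and 0.31 at the lowest, median and highest. Its log2 signal was 6.19, 6.38 and 7.12 at the lowest, median and highest in KO tumours, against 6.17, 6.25 and 7.01 in WT tumours. This probe lay near background, being well above it on 8 of 12 arrays in KO RNA and on 2 of 12 in WT RNA, and on slide 3 in neither. It entered the test through KO RNA alone, so its mean ratio of 0.14 ± 0.03 (SE, n = 12) is given as a description.

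Fzd4, the receptor for Norrin in blood vessels, had the lowest mean ratio of the receptors without passing the test. Its log2 signal in KO tumours was 10.35, 10.85 and 11.81 at the lowest, median and highest, against 10.50, 11.26 and 12.70 in WT tumours. The ratio was below 0 on 8 of 12 arrays, from -1.62 (replicate 3) to 0.61 (replicate 1), with a mean of -0.51 ± 0.20 (SE, n = 12; adjusted p = 0.174). Pair C stood on the other side of 0, at 0.25, while the other pairs gave -0.45 (A), -0.86 (B) and -0.76 (D). Pairs C and D also differed in dye orientation.

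Fzd6, which works with planar polarity proteins in skin and hair, varied between pairs more than any other frizzled. Its ratios ran from -1.41 (replicate 8) through a median of -0.43 to 1.09 (replicate 1). The pairs gave 0.41 (A), -0.92 (B), -1.11 (C) and -0.22 (D), and the mean was -0.41 ± 0.23 (SE, n = 12; adjusted p = 0.354). In the KO RNA itself, pair B lay at 8.59 to 9.42 and pair A at 10.51 to 10.91, and WT RNA of pair B lay at 9.79 to 10.19 and of pair A at 9.81 to 10.91. The test of a difference between pairs gave an unadjusted p of 0.005 and an adjusted p of 0.19.

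Fzd8 was at 0.09 ± 0.06 at its main probe and at 0.26 ± 0.09 at a dimmer one (SE, n = 12 each; adjusted p = 0.486 and 0.123). The remaining receptors lay close to 0. Fzd5 was at -0.03 at both probes and Fzd9 at -0.05, while the 2 probes of Fzd10 had opposite signs, 0.09 and -0.08 (adjusted p = 0.27 and 0.208).

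**Figure D3:**
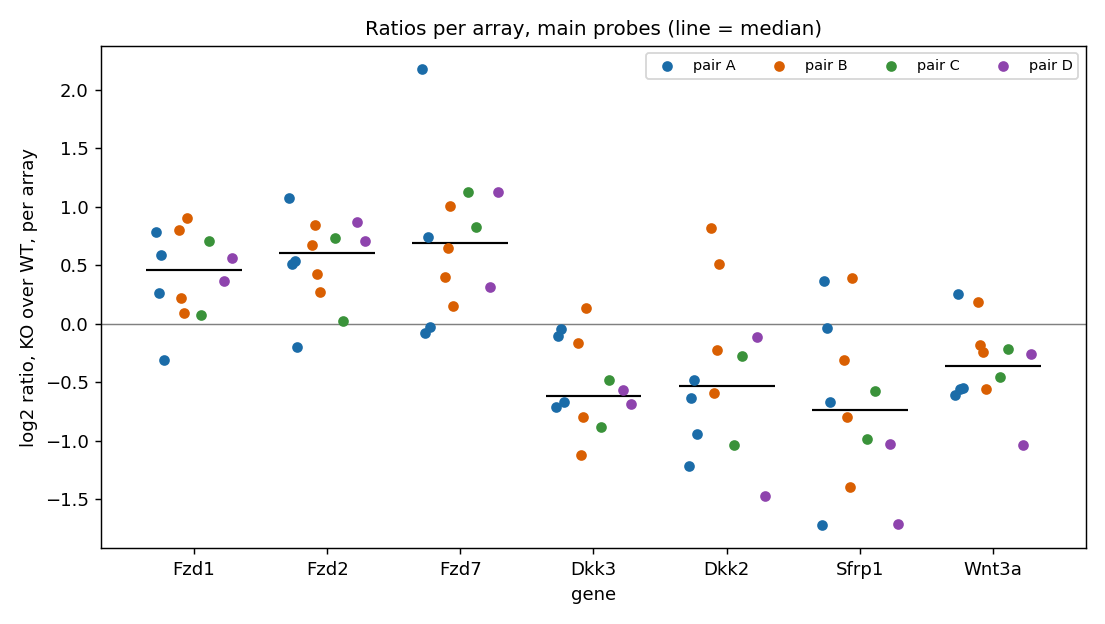
Log2 ratio of KO over WT (y axis) on each of the 12 arrays for 7 main probes (x axis), coloured by pair, with a line at the median. Fzd1, Fzd2 and Fzd7 are above 0 on 11, 11 and 10 arrays, and Dkk3 is below 0 on 11.

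Among the Dkk and Sfrp genes, Dkk3 was the only one called lower, while Sfrp1 had a more negative mean ratio without passing the test. Dkk3 is the divergent member of its family, and it differs from Dkk1 in that it is not known as a strong binder of the Lrp co-receptors. It was measured at chr7:108032840-108032899 on the minus strand. Its log2 signal in KO tumours was 8.03, 8.31 and 9.07 at the lowest, median and highest, against 8.48, 8.92 and 9.64 in WT tumours. Replicate 8 was the single array on which the KO signal was the higher one, and the ranges of the groups overlapped. Ratios were -1.12 (replicate 6), -0.62 and 0.13 (replicate 8) at the lowest, median and highest. The mean ratio was -0.51 ± 0.12 (SE, n = 12; 95% interval -0.78 to -0.25), 1.43-fold lower in KO tumours, with an adjusted p of 0.0321. All pairs lay below 0, at -0.38 (A), -0.49 (B), -0.68 (C) and -0.62 (D). The adjusted p was 0.0553 to 0.0724 without any one of replicates 1, 4, 7, 9 and 12.

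Dkk2, an inhibitor that can also activate signalling in some settings, had a similar mean ratio with a wider spread, -0.48 ± 0.20 (SE, n = 12; adjusted p = 0.189). It was below 0 on 10 of 12 arrays, from -1.47 (replicate 12) through a median of -0.54, and the 2 arrays above 0 were replicates 5 (0.82) and 8 (0.51) of pair B. That pair gave 0.13, and the others gave -0.82 (A), -0.66 (C) and -0.79 (D). Dkk1, the classical inhibitor of Lrp5 and Lrp6, was near 0 at both probes, at -0.01 ± 0.03 and -0.03 ± 0.06 (SE, n = 12 each). Both probes were dim, with mean log2 signals of 6.45 and 6.30 in KO tumours. They were well above background on 8 and 5 of 12 arrays in KO RNA and on 8 and 6 in WT RNA. A change of Dkk1 could therefore be missed. Dkk4 was well above background on none of the 12 arrays in either group, so it was not tested.

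Sfrp1, which binds Wnt ligands and is often silenced by promoter methylation in human cancers, had the most negative mean ratio of all members and did not pass the test. Its log2 signal in KO tumours was 6.64, 7.17 and 8.78 at the lowest, median and highest, against 7.06, 7.92 and 9.49 in WT tumours. The ratio was below 0 on 10 of 12 arrays, with a mean of -0.72 ± 0.22 (SE, n = 12; adjusted p = 0.0755). It was above 0 on replicates 2 (0.37) and 8 (0.39), and the pairs gave -0.51 (A), -0.53 (B), -0.78 (C) and -1.37 (D). The second Sfrp1 probe stayed at 0.01 ± 0.06 (SE, n = 12) and was well above background on 8 of 12 arrays in each group. Its mean log2 signal was 6.50 in KO tumours and 6.48 in WT tumours, against 7.40 and 8.11 at the main probe. The 2 probes thus gave different ratios, and the second is too dim to check the main one. Sfrp4 was at -0.10 ± 0.12 and Sfrp5 at -0.01 ± 0.03 (SE, n = 12 each), and Sfrp2, left out on replicate 11 where its spot was flagged, was at -0.04 ± 0.07 (SE, n = 11). Of the 5 Sfrp probes, 1 had an unadjusted p under 0.05 in limma, and 21% of all kept probes did so.

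No Wnt ligand passed the test. Of 20 kept Wnt probes, 3 had an unadjusted p under 0.05 in limma, those of Wnt3a, Wnt4 and Wnt9b, and 21% of all kept probes did so. For comparison, the count was 9 of 16 for Fzd probes, 2 of 4 for Dkk probes and 15 of 45 for all members. The Fzd count includes the second Fzd3 probe, which was kept only through KO RNA. Wnt3a, a ligand of the beta-catenin branch, had log2 signals of 6.89, 7.19 and 7.96 at the lowest, median and highest in KO tumours, against 7.15, 7.74 and 8.16 in WT tumours. It was below 0 on 10 of 12 arrays, with a mean ratio of -0.36 ± 0.11 (SE, n = 12; adjusted p = 0.0826). Wnt10a, a ligand best known from teeth and skin, lay on the other side, at 0.31 ± 0.15 (SE, n = 12; adjusted p = 0.263), above 0 on 9 of 12 arrays and up to 1.15 on replicate 2. Wnt4 was at -0.28 ± 0.11 (adjusted p = 0.159), and Wnt9b, with a small and even ratio, was at -0.09 ± 0.03 (adjusted p = 0.109; SE, n = 12 each).

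The ligands known from lung tissue spread widely between arrays. Wnt7b, made by the lung epithelium during branching, had ratios of -2.11 (replicate 1), -0.18 and 0.74 (replicate 6) at the lowest, median and highest. On replicate 1 its WT signal was 11.26, and the other 11 WT signals lay between 8.82 and 9.79. Wnt7a showed the same array at its extreme, with -1.97 on replicate 1 against up to 0.76 elsewhere, and its mean was 0.02 ± 0.21 (SE, n = 10, since the spot was flagged on replicates 9 and 12). Its ratios also split by dye. With KO RNA in Cy3 they lay between 0.35 and 0.76, and with KO RNA in Cy5 between -1.97 and 0.22. The part of the dye in this spread was not tested. Wnt2, made by lung mesenchyme, ran from -1.50 (replicate 1) to 0.82 (replicate 8) around a mean of -0.20 ± 0.20 (SE, n = 12). Wnt5a, which acts mostly outside the beta-catenin branch, lay between -0.39 and 0.39 on all arrays but replicate 9, where it was -1.58 and the WT signal was 8.47. Its mean was -0.18 ± 0.15 (SE, n = 12; adjusted p = 0.557). Wnt5a was dim, well above background on 7 of 12 arrays in KO RNA and on 8 in WT RNA.

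The remaining ligands lay closer to 0. Wnt9a was at -0.16 ± 0.09 at its main probe (SE, n = 12) and at -0.01 at the other. Wnt1, Wnt2b, Wnt5b, Wnt6, Wnt8b, Wnt10b and Wnt16 had mean ratios between -0.06 and 0.03 at their main probes. Of these, Wnt2b, Wnt8b, Wnt10b and Wnt16 were dim, well above background on 6 to 9 of 12 arrays in each group, so changes could be missed. A second Wnt6 probe was dim too, well above background on 7 of 12 arrays in KO RNA and on 5 in WT RNA. Its mean log2 signal in KO tumours was 6.34, against 8.40 at the main probe, and its mean ratio was -0.05. Wnt11 was measured on 8 arrays, since its spot was flagged on slide 3, and gave 0.11 ± 0.09 (SE, n = 8). Wnt3 was well above background on 1 and 4 of 12 arrays in KO RNA at its 2 probes, and on 2 and 1 of 12 in WT RNA. Wnt8a was well above background on no array in either group.

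**Figure D4:**
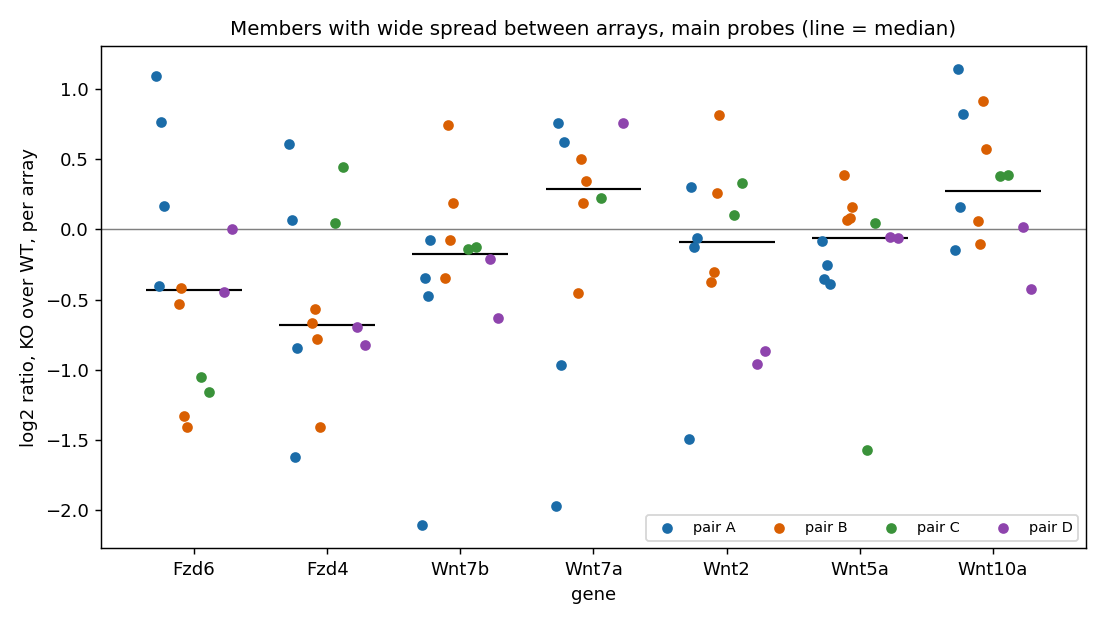
Log2 ratio of KO over WT (y axis) on each array for 7 members whose ratios spread widely (x axis), coloured by pair, with a line at the median. Replicate 1 of pair A gives the lowest points of Wnt7b (-2.11), Wnt7a (-1.97) and Wnt2 (-1.50), and Fzd6 is above 0 on 3 arrays of pair A and below 0 on every array of pairs B and C.

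A difference between the 4 pairs was tested for the 42 member probes with values on all arrays, and none passed an adjusted p of 0.05, while 0.348% of all probes did. At an unadjusted p under 0.05 there were 2, Fzd6 and Wnt7b, and 12.6% of all probes passed at that level. Without replicate 10, 1 member, Wnt5a, passed (adjusted p = 0.0189); pair C then holds replicate 9 alone, which is assumed to vary like the other arrays. The array farthest from the median of a member was most often replicate 4, for 8 of 42 probes, followed by replicate 11 for 6. Replicate 4 was also the array on which Fzd1 and Fzd2 were below 0.

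The rest of the pathway was read from 80 further genes in 8 lists, of which 78 were measured. At their main probes 4 were higher and 7 were lower, which is 14.1%, against 6.54% of all genes in either direction. Their median ratio was -0.01. These lists were drawn up with earlier results of the series known.

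The higher genes came from 3 lists. Among them were Pygo1, a nuclear partner of beta-catenin, at 0.59 ± 0.11 (adjusted p = 0.0146), and Tle2, a co-repressor of Tcf factors, at 0.48 ± 0.12 (adjusted p = 0.0382). Csnk1e, a kinase that acts on dishevelled, was at 0.49 ± 0.11 (adjusted p = 0.0282), and Vangl2, a membrane protein of planar polarity, was at 0.53 ± 0.14 (SE, n = 12 each; adjusted p = 0.0452). Pygo1 kept its call without any single array. The call of Csnk1e was lost without replicate 7, 8 or 12 (0.0524 to 0.0552), that of Tle2 without replicate 1, 2, 7, 8, 9, 10 or 11 (0.0518 to 0.0723), and that of Vangl2 without any one of replicates 1, 2, 3, 4, 6, 8, 9, 10 and 12 (0.0593 to 0.0959).

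Feedback targets of beta-catenin signalling were the list with the most calls, with 4 of 10 lower, none higher and a median of -0.35, and 3.49% of all genes were lower. The median of the list by pair was -0.57 (A), 0.06 (B), -0.18 (C) and -0.41 (D). Myc at 0.31 (adjusted p = 0.225) and Sp5 at 0.28 (adjusted p = 0.811) lay above 0 and were not called. Apcdd1, Ascl2, Nkd2 and Tnfrsf19 lay below 0 and were not called either. Axin2, a scaffold of the complex that degrades beta-catenin and a widely used readout of the pathway, was below 0 on 12 of 12 arrays, from -0.89 to -0.07. Its mean ratio was -0.50 ± 0.09 (SE, n = 12; adjusted p = 0.0107). Lef1, a nuclear partner of beta-catenin counted among the targets and the nuclear factors, was at -0.76 ± 0.14 (adjusted p = 0.0118), and Nkd1, a feedback inhibitor that binds dishevelled, was at -1.32 ± 0.30 (adjusted p = 0.0294). Ccnd1, which encodes cyclin D1, was at -0.58 ± 0.15 (SE, n = 12 each; adjusted p = 0.0451). Axin2 and Lef1 kept their calls without any single array. That of Nkd1 was lost without replicate 2, 3, 7, 9 or 12 (0.0505 to 0.0596), and that of Ccnd1 was lost without any one of replicates 1, 2, 3, 4, 7, 8, 9, 10 and 12 (0.0536 to 0.0939).

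The other lower genes were Prickle1 (-0.55 ± 0.15; adjusted p = 0.0477) and Prickle2 (-0.42 ± 0.09; adjusted p = 0.0236), partners of Vangl2 in planar polarity, and Draxin, a secreted antagonist, with a ratio of -0.12 ± 0.03 (SE, n = 12 each; adjusted p = 0.0415). Prickle2 lost its call without replicate 3 (0.0507), Draxin without any array but replicate 5 (0.053 to 0.0806), and Prickle1 without any array but replicates 4 and 5 (0.0508 to 0.104). None of the 7 co-receptors, 9 genes of the R-spondin axis and 7 genes of ligand processing passed the test in limma. Only 1 of them (Notum) had an unadjusted p under 0.05 in limma, while 21% of all kept probes did so. The count of 11 called pathway genes fell to 5 without replicate 2, 3, 7, 8, 9 or 12 and to 6 without replicate 1 or 10.

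**Figure D5:**
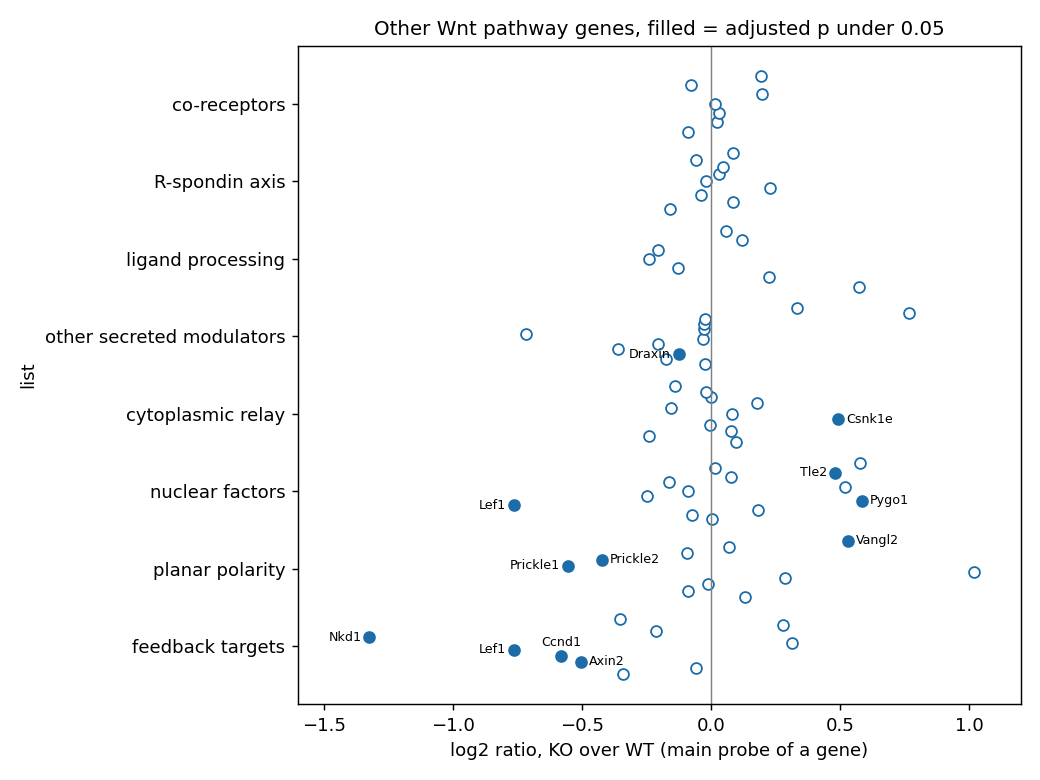
Log2 ratio of KO over WT (x axis) at the main probe of each measured gene of the 8 other pathway lists (rows), with filled points for an adjusted p under 0.05. Nkd1 (-1.32) and Lef1 (-0.76) are the lowest called genes and Pygo1 (0.59) and Vangl2 (0.53) are the highest.

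Markers of some other cell types moved between the groups as well. Of all genes, 3.49% were lower and 3.05% were higher at their main probe. No marker of the epithelial, macrophage, T cell, B cell, mesothelial, club and ciliated lists was called. Of 6 alveolar type 2 markers 1 was lower (Lamp3, at -0.78, adjusted p = 0.0429). Of 5 alveolar type 1 markers 1 was lower (Cav1, at -0.69, adjusted p = 0.00944), and no alveolar marker was higher at its main probe. The type 2 marker Abca3 was at 0.36 at its main probe (adjusted p = 0.0839). Another Abca3 probe was called, and its direction is not reported here. Endothelial markers had a mean log2 signal over the list of 9.72 to 10.21 per array in KO tumours, against 10.41 to 11.10 in WT tumours. Each of these values is a mean over 10 genes, and how often the ranges of such means lie apart for other sets of genes was not counted. All 10 were well above background on all arrays in both groups. Markers of smooth muscle and pericytes had 3 of 7 genes lower (Rgs5, Pdgfrb and Notch3), with a list mean of 10.32 to 10.72 in KO tumours and 10.75 to 11.92 in WT tumours. Of 7 fibroblast markers 1 was higher (Lum, at 1.13 ± 0.30, SE, n = 12) and none was lower. Pdgfra was at -0.67 (adjusted p = 0.0607), Col1a2 at -0.49 (adjusted p = 0.215) and Col1a1 at -0.37 (adjusted p = 0.414), the list median was -0.01, and the list mean was 10.76 to 12.82 in KO tumours and 10.50 to 13.02 in WT tumours. Lymphatic markers had 2 of 4 genes lower (Lyve1 at -0.91 and Mmrn1 at -0.64) and a median ratio of -0.38, with a list mean of 7.81 to 8.52 in KO tumours and 8.22 to 8.79 in WT tumours. Of 2 red cell markers measured 1 was lower (Hba-a1, at -1.49), and the median ratio by pair was -2.32 (A), 0.14 (B), -1.61 (C) and -1.47 (D). Frizzled, Dkk and Sfrp genes are expressed by stromal and vessel cells as well as by epithelium, and the part of these cell types in the ratios above was not tested.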

How the data were processed

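RNA of KO and WT tumours was compared on 12 two-colour arrays. Spot and local background intensities, and flags per spot, were deposited as extracted with Agilent Feature Extraction 10.1.1.1 (protocol GE2-v5_10_Apr08, design 014868, annotation mm7), per the file headers. The deposited series matrix holds the authors' log2 ratios, for which the submitters' processing notes name limma. Its columns matched the ratios computed here in direction (r between 0.991 and 0.997), and how it was centred is not stated.

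Mean intensities were corrected with normexp (offset 50), outlying local backgrounds being replaced by the array's median, and normalized by loess. Controls and flagged spots had weight 0, spots of a probe were averaged, and swapped arrays were turned to KO over WT. Probes well above background in KO or WT RNA on at least 6 of 12 arrays were kept (35531 of 41174). Levels are log2 signals after scaling between arrays (Aquantile). The analysis used R 4.3.3, limma 3.58.1, statmod 1.5.0 and the data.table package (1.17.8). The model held a KO over WT coefficient and a dye term, and pairs entered as a random block, at a consensus correlation of 0.08. The correlation was estimated on turned ratios, so that the block can absorb a difference shared by a pair. A separate F test compared the pairs. P-values were Benjamini-Hochberg adjusted over all kept probes, and the scripts were tested on simulated data. The number of arrays limits the precision.

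Every member is named. Values are given for called members, the 2 uncalled members of each family with the largest ratio, members measured more often in one genotype, and members with a difference between pairs. Values of other members and the promoter windows were added as description. For the other pathway lists every gene called at its main probe is named. Tcf7, which was not called at its main probe, had another probe that was called. The members, gene lists and tests were chosen with earlier results of these data known. Gene names came from RefSeq (GRCm38.p6) for 22951 probes and from the files for 11758, and 6465 probes were unnamed. Alternatives covered background, normalization, filter, probes per gene, dye term, block, weights, variance model, threshold and arrays, pairs or slides left out.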

Additional observations from a re-analysis of the deposited data

How the results depend on the processing

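The 5 calls among member probes, 1 of them the second Fzd3 probe, rest on small margins over the spread between these arrays, and none of their ratios changed sign in any alternative. Counts are given as all probes, member probes and other pathway genes, against 2036, 5 and 11 in the report. Local backgrounds as deposited gave 1525, 3 and 5, with 61.6% of calls over all probes higher against 49.7% in the report. Median centring gave 486, 0 and 3. Taking the arrays as independent gave 3269 probes and 8 members, and the block on red over green ratios gave 3228 and 8, adding Sfrp1, Wnt3a and the second Fzd7 probe. Means of each pair gave 40, 0 and 0. Leaving out pair A gave 577, 2 and 1, pair B 1192, 1 and 6, pair C 1185, 1 and 2, and pair D 1268, 0 and 3. Pairs A and B alone gave 1256, 0 and 4. Slides 1, 2 and 3 alone gave 0, 1 and 0 probes and 0 members and 0 pathway genes each. An adjusted p under 0.01 gave 448, 0 and 0, and under 0.10 gave 3743 probes and 8 members. Leaving out single arrays gave 1053 to 2687 probes, 0 to 5 members, 5 to 11 pathway genes and 0 to 1 members that differed between pairs. Where no member was called in limma, 8 members had an unadjusted p under 0.05 with median centring and 12 with pair means. There were 13 without replicate 12, 11 without pair D, 12 in pairs A and B alone and 7, 5 and 13 within slides 1, 2 and 3. The share of all probes at that level was found only for the fit of the report, where it was 21%. These counts are therefore description and cannot be weighed against all probes. Pairs left out, slides alone and pair means hold fewer values; for the other settings the cause was not tested. The test between pairs could not be fitted on pair means, within slide 1 or within slide 2. No paired analysis by replicate number was possible because each array holds both groups and the ratio is already a difference within the array. Probes near background on slide 3 limit the dimmer members.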
